A study of Mus musculus with 16 samples.

Results

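The genes described here encode the NR4A orphan nuclear receptors (*Nr4a1*, *Nr4a2*, *Nr4a3*), 2 transcription factors that bind cAMP response elements (*Creb1*, *Crem*), the 3 CREB-regulated transcription coactivators (*Crtc1*, *Crtc2*, *Crtc3*) and 2 salt-inducible kinases (*Sik1*, *Sik2*). They were chosen by gene symbol, 10 of the 54347 genes in the count table, and all 10 were among the 13150 genes that passed the low-count filter. RNA was sequenced from wt1-SAM cells, a mouse brown preadipocyte line that stably carries the CRISPR activation system SAM, so every group shared that system. The cells were differentiated into brown adipocytes, reverse transfected at day 4 with 250 ng plasmid and harvested at day 7. The plasmid was either the empty sgRNA vector or pSgRNA-MS2-2+7, a pair of plasmids transfected together whose guides target the long non-coding RNA gene *Gm15551*, and the cells were either left as control or spent the last 24 h in isoproterenol (1 µM), which activates β-adrenergic receptors. This gave 4 groups of 4 libraries with replicate numbers 3 to 6. The differentiation medium of all groups first held IBMX, an inhibitor of the phosphodiesterases that break down cAMP, and dexamethasone, and it held rosiglitazone at every stage. For the reverse transfection the cells were suspended in another medium, Opti-MEM, and differentiation medium was given again 24 h later. All libraries came from 1 cell line, and the sources used here do not say whether the replicates were separate cultures, so the p-values measure the spread between these libraries.

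In brown adipocytes, β-adrenergic receptors raise cAMP, which activates protein kinase A. The kinase phosphorylates CREB at its DNA sites and also acts on the salt-inducible kinases, which otherwise keep the CRTC coactivators phosphorylated and in the cytoplasm. CRTC proteins freed in this way enter the nucleus and drive CREB target genes, among them the NR4A genes, *Sik1* and the inducible repressor form of *Crem*, and several of these products act back on the pathway. The NR4A genes are known as early and usually short-lived responders to cAMP, and the comparison asked which of these transcripts differed after a full day of agonist, with and without the *Gm15551* guides.

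The library totals ran from 9053521 to 16546187 estimated counts. A single ribosomal RNA gene took 11.7% to 51.8% of them, which left 5900607 to 12959314 counts for all other genes. Values are given as normalised counts (CPM, the count relative to a library size scaled by TMM), and 3 counts corresponded to 0.166 to 0.389 CPM. Mean levels of the targeted *Gm15551* were 0.95 ± 0.404 CPM for the empty vector controls, 2.96 ± 1.08 CPM for the sgRNA controls, and 0.146 ± 0.198 and 1.56 ± 0.42 CPM for the matching isoproterenol groups (SD, n = 4 each). Its averaged sgRNA effect on the log2 scale was 2.37 (SE 0.39, adjusted p = 0.0989 by edgeR), and 2.41 with an adjusted p of 0.00055 when the replicate number was a block. Adipocyte markers were abundant in every group (*Adipoq*, *Fabp4*, *Plin1*, *Pparg*, *Cidec* and *Lipe* summed to 9745 to 22651 CPM). The brown adipocyte marker *Ucp1* was at 0.349 ± 0.3 and 0.547 ± 0.32 CPM in the control groups of empty vector and sgRNA cells, and the marker *Dio2* was at or near 0 in all groups. *Cidea*, of the same list, was also low in these controls, at 1.61 ± 0.82 and 3.16 ± 2.66 CPM. *Ppargc1a* was at 37.9 ± 9.3 and 40.6 ± 7.5 CPM. *Elovl3*, which the study counts as a common adipose marker, was at 235 ± 81 and 251 ± 80 CPM. The 5 brown adipocyte markers summed to 193 to 420 CPM in the controls and 249 to 564 CPM after isoproterenol, mostly *Elovl3*.

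The sequence before the start site of the NR4A genes is shown first, because cAMP response elements (CREs) are the sites that CREB binds. The full element reads TGACGTCA and its core, which CREB also binds, reads TGACG, or CGTCA on the other strand, so a full element holds the core on both strands. RefSeq promoter sequence (GRCm38.p6) was matched for 7 of the 10 genes, and the 250 bases before the start site were searched on both strands. Each of the 3 NR4A genes had 4 matches to the core and no full element. *Creb1*, *Crtc1*, *Crtc3* and *Sik2* had 0 matches. Of all 32851 promoters of this length, 17.765% held at least 1 core, 0.137% held at least 4 and 1.546% held a full element. The motif that NR4A receptors bind as monomers, AAAGGTCA on either strand, was in none of the 7 windows and in 1.336% of all promoters. A match is a description of these letters and not evidence of binding. The sequences run 5′ to 3′ on the strand of the gene, with the core in capitals: *Nr4a1* at chr15:101266596-101266845 (plus strand), *Nr4a2* at chr2:57124004-57124253 (minus strand) and *Nr4a3* at chr4:48045055-48045152 (plus strand), where only the 98 bases outside annotated exons are shown.
Nr4a1: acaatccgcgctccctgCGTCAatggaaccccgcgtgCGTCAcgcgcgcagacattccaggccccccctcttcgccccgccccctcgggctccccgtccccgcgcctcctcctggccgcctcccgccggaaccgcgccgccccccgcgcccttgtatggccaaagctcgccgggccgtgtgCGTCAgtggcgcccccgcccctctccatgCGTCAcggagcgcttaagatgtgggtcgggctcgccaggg
Nr4a2: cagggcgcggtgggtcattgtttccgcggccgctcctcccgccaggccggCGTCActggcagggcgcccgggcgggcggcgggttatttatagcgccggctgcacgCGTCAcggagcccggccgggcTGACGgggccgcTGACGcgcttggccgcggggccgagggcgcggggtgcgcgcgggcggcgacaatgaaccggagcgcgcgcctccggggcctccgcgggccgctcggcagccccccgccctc
Nr4a3: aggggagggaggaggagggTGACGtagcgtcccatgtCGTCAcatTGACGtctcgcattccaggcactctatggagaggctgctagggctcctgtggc

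In *Nr4a1* the 4 cores began 233, 213, 69 and 40 bases before the start site. In *Nr4a2* they began 200, 144, 123 and 111 bases before it, and in *Nr4a3* 231, 213, 205 and 147 bases before it, the last of these outside the shown stretch. Within these windows the 3 genes thus carried the same number of cores at different spacings, although the *Nr4a3* core at 147 bases lay in an annotated exon.

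**Figure D1:**
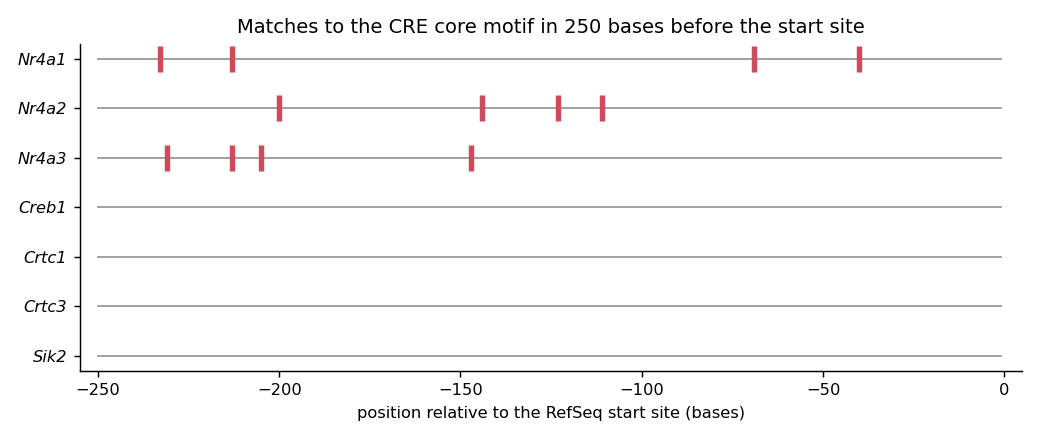
Positions of matches to the CRE core motif (red marks) on the 250 bases before the RefSeq start site of the 7 genes whose promoter sequence was searched. The x axis is the distance from the start site in bases. *Nr4a1*, *Nr4a2* and *Nr4a3* have 4 marks each and the other 4 genes have none.

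*Nr4a1* (ENSMUSG00000023034, GRCm38 chr15:101254269-101274795, plus strand) encodes NUR77, the most abundant of the 3 receptors here. In empty vector controls the libraries of replicates 3 to 6 held 1.38, 2.03, 2.85 and 2.59 CPM, and after isoproterenol 8.23, 8.40, 14.6 and 9.32 CPM. In sgRNA controls they held 1.82, 1.29, 1.64 and 3.03 CPM, and after isoproterenol 9.22, 5.82, 10.9 and 11.3 CPM. All 8 isoproterenol libraries lay above all 8 control libraries, a separation that 0.707% of the tested genes showed in this direction. The log2 fold change averaged over both plasmids was 2.24 (SE 0.22, 95% interval 1.78 to 2.70), a 4.71-fold rise with an adjusted p of 1.2e-05 (edgeR quasi-likelihood test, Benjamini-Hochberg adjustment over all tested genes). Within each plasmid the rise was nearly the same, 2.22 (SE 0.31, adjusted p = 0.0013) in empty vector cells and 2.25 (SE 0.31, adjusted p = 0.000967) in sgRNA cells.

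*Nr4a3* (ENSMUSG00000028341, GRCm38 chr4:48045153-48086447, plus strand) encodes NOR1 and was the least abundant of the 10 genes in both control groups. The empty vector controls held 3, 0, 5 and 6 counts and the sgRNA controls 1, 2, 3 and 4 counts in replicates 3 to 6, so the control level was close to the limit of what these libraries can measure. With isoproterenol the counts were 10, 8, 29 and 15 in empty vector cells and 16, 18, 51 and 33 in sgRNA cells. The mean of the empty vector groups was 0.363 ± 0.323 CPM without and 1.67 ± 1.4 CPM with the agonist, and that of the sgRNA groups 0.187 ± 0.0998 and 2.21 ± 1.36 CPM (SD, n = 4 each). The groups did not overlap in sgRNA cells, as for 3.62% of the tested genes in this direction, whereas in empty vector cells the isoproterenol library of replicate 4 (0.442 CPM) lay below the controls of replicates 5 and 6 (0.648 and 0.622 CPM). Each of the 8 pairs of the same plasmid and replicate number was higher with isoproterenol. The averaged log2 fold change was 2.90 (SE 0.57, 95% interval 1.70 to 4.11, adjusted p = 0.00714 by edgeR), and this call was lost when replicate 3 was left out (adjusted p = 0.112). Within a plasmid *Nr4a3* did not pass, but did with the replicate number as a block: 2.31 (SE 0.80, adjusted p = 0.278) in empty vector cells became 2.20 (SE 0.47, adjusted p = 0.00666), and 3.50 (SE 0.81, adjusted p = 0.0669) in sgRNA cells became 3.51 (SE 0.47, adjusted p = 0.000186). In sgRNA cells it also passed with no filter, with DESeq2, with the ribosomal RNA share as covariate, and without the empty vector control library of replicate 4 or the empty vector isoproterenol library of replicate 5 (adjusted p = 0.036 and 0.0426). The log2 fold change in empty vector cells was 1.57 without the empty vector isoproterenol library of replicate 5, 1.53 with the ribosomal RNA share as covariate and 2.90 without replicate 6, and it did not pass in any of these 3 settings.

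*Nr4a2* (ENSMUSG00000026826, GRCm38 chr2:57106830-57124003, minus strand) encodes NURR1. It held 0.481, 0.525, 0.907 and 0.932 CPM in empty vector controls and 0.901, 0.331, 1.91 and 1.59 CPM after isoproterenol. In sgRNA cells the controls held 0.209, 0.379, 0.896 and 0.758 CPM and the isoproterenol libraries 0.532, 0.452, 0.479 and 1.41 CPM. The groups overlapped within both plasmids, and 6 of 8 pairs were higher with isoproterenol. The averaged log2 fold change of 0.55 (SE 0.41, 95% interval -0.32 to 1.41, adjusted p = 0.542 by edgeR) did not pass, and its libraries held 3 to 20 counts. The log2 fold changes of the 3 NR4A genes ran from 0.55 to 2.90 in the main fit, and a relation to their CRE cores was not tested. The log2 fold change of *Nr4a2* was as low as 0.20 under the processing alternatives, and 0.27 without the sgRNA isoproterenol library of replicate 6.

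**Figure D2:**
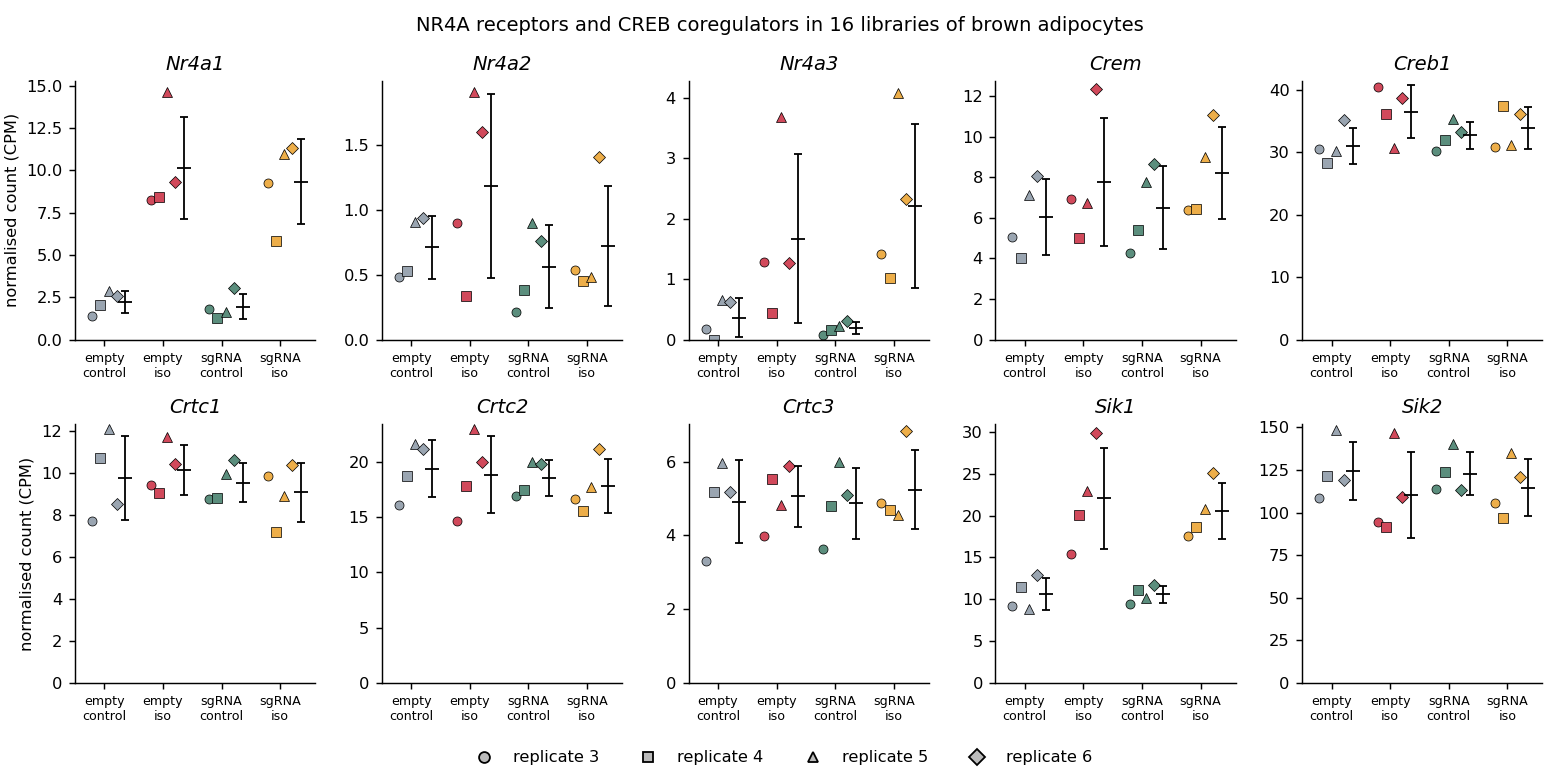
Normalised count (CPM, linear axis from 0) of each gene in the 16 libraries by group, with the marker shape giving the replicate number and the bar the group mean ± SD (n = 4). For *Nr4a1* and *Sik1* all isoproterenol libraries (iso) lie above all control libraries; for the other 8 genes the groups overlap within at least 1 plasmid.

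*Crem* (ENSMUSG00000063889, minus strand of chromosome 18) encodes activators and, from an internal promoter, the cAMP-inducible repressor ICER. The annotation gives it 39 transcripts, and the table holds 1 count for all of them, so these forms cannot be told apart. An exon of *Gm6225* overlaps it on the other strand, and the sources used here do not say whether counting used the strand. Its CPM in replicates 3 to 6 was 5.05, 4.00, 7.13 and 8.08 in empty vector controls and 6.95, 5.03, 6.73 and 12.3 after isoproterenol. In sgRNA cells it was 4.26, 5.39, 7.77 and 8.64 in controls and 6.39, 6.44, 9.02 and 11.1 after isoproterenol. Replicate 6 was the highest library in all 4 groups, and 7 of 8 pairs were higher with isoproterenol, although the groups overlapped. The averaged log2 fold change was 0.35 (SE 0.22, 95% interval -0.11 to 0.82, adjusted p = 0.44 by edgeR), and 0.19 without the empty vector isoproterenol library of replicate 6. With the replicate number as a block it was also 0.35, with an SE of 0.10 and an adjusted p of 0.0261, which stayed under the bound of 0.5 set for a call.

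*Creb1* (ENSMUSG00000025958, GRCm38 chr1:64532645-64604548) encodes the CREB protein itself, whose activity is set mainly by phosphorylation. Empty vector controls averaged 31.1 ± 2.88 CPM and the matching isoproterenol libraries 36.5 ± 4.25 CPM (SD, n = 4). The sgRNA groups averaged 32.7 ± 2.18 and 33.9 ± 3.33 CPM. The averaged log2 fold change was 0.14 (SE 0.07, 95% interval -0.01 to 0.30, adjusted p = 0.338 by edgeR) and did not pass.

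The CRTC coactivators, whose activity is set by where in the cell they are, did not pass in any comparison, and their groups overlapped throughout. *Crtc2*, the most abundant of the 3 per length, held 16.1 to 21.6 CPM in the 8 controls and 14.7 to 23.0 CPM in the 8 isoproterenol libraries (log2 fold change -0.05, SE 0.10, 95% interval -0.26 to 0.16). *Crtc1* ran from 7.69 to 12.1 CPM in controls and from 7.17 to 11.7 CPM after isoproterenol (-0.01, SE 0.11, interval -0.25 to 0.23). *Crtc3* ran from 3.31 to 5.97 and from 3.99 to 6.83 CPM (0.08, SE 0.15, interval -0.24 to 0.41). In the average over plasmids the intervals of *Creb1*, of all 3 CRTC genes and of *Sik2* lay inside log2 changes of -0.5 and 0.5. A change of the average beyond that size in either direction thus fell outside the 95% interval for these 5 genes. Within a plasmid the interval of *Crtc3* reached 0.53 in empty vector cells and 0.56 in sgRNA cells.

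*Sik1* (ENSMUSG00000024042, GRCm38 chr17:31844250-31855804, minus strand) encodes the cAMP-inducible member of the salt-inducible kinases, which phosphorylate CRTC proteins. It held 9.19, 11.5, 8.81 and 12.8 CPM in empty vector controls and 15.4, 20.1, 23.0 and 29.9 CPM after isoproterenol. In sgRNA cells the controls held 9.43, 11.1, 10.2 and 11.7 CPM and the isoproterenol libraries 17.6, 18.6, 20.8 and 25.1 CPM. As for *Nr4a1*, all 8 isoproterenol libraries lay above all 8 controls, and replicate 6 was the highest library in every group. The averaged log2 fold change was 1.01 (SE 0.13, 95% interval 0.74 to 1.29, adjusted p = 0.000216 by edgeR), a 2.01-fold rise. It was 1.06 (SE 0.19, adjusted p = 0.00825) in empty vector cells and 0.96 (SE 0.18, adjusted p = 0.0203) in sgRNA cells. Leaving out libraries cost the call within a plasmid but not the average. In empty vector cells it was lost without replicate 4 or 5 (adjusted p = 0.0989 and 0.108). In sgRNA cells it was lost without replicate 3, 4 or 5, and without any 1 of the sgRNA control libraries 3, 4 and 5 or the sgRNA isoproterenol libraries 5 and 6, with adjusted p from 0.0511 to 0.178 and a log2 fold change of at least 0.85 throughout.

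*Sik2* (ENSMUSG00000037112, GRCm38 chr9:50892801-51009073, minus strand), the related kinase known for its high level in adipose tissue, had the highest level of the 10 genes in every group. It held 108 to 149 CPM in the 8 controls and 91.3 to 147 CPM in the 8 isoproterenol libraries, and replicate 5 was the highest in all 4 groups. The value was lower with isoproterenol in 7 of 8 pairs, but the averaged log2 fold change of -0.14 (SE 0.11, 95% interval -0.36 to 0.09, adjusted p = 0.567 by edgeR) did not pass, nor did it with the replicate block (-0.15, SE 0.06, adjusted p = 0.0719). An exon of *Ppp2r1b* overlaps it on the other strand.

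**Figure D3:**
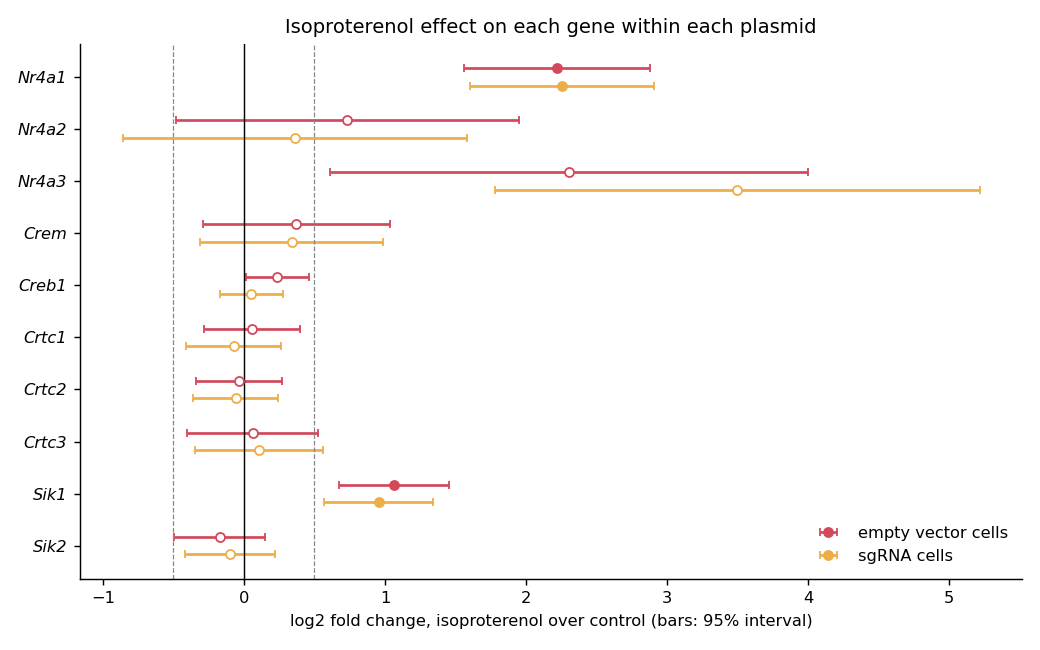
Log2 fold change of isoproterenol over control with its 95% interval for each gene, in empty vector cells (red) and sgRNA cells (yellow). Filled points passed the test and the bound of 0.5 (dashed lines) without the replicate block. *Nr4a1* and *Sik1* are filled in both kinds of cells, and the intervals of *Nr4a3* are the widest.

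Over the 10 genes, 3 were called higher with isoproterenol (*Nr4a1*, *Nr4a3*, *Sik1*) and 0 lower in the average over plasmids, where a call means an adjusted p below 0.05 and a log2 fold change beyond 0.5. Of all 13150 tested genes, 2.65% were called in either direction, 1.33% higher and 1.32% lower. The median log2 fold change was 0.25 over the 10 genes and 0.00 over all tested genes. In empty vector cells 2 of the 10 genes were called higher, against 0.456% of all genes, and in sgRNA cells 2 of 10, against 0.403%. With the replicate block 3 of 10 were called higher in each, against 2.32% and 2.08% of all genes, and 3 in the average, against 3.09%. Genes of 1 pathway were chosen with earlier results in view, so these counts describe the genes and are no independent evidence for the pathway.

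**Figure D4:**
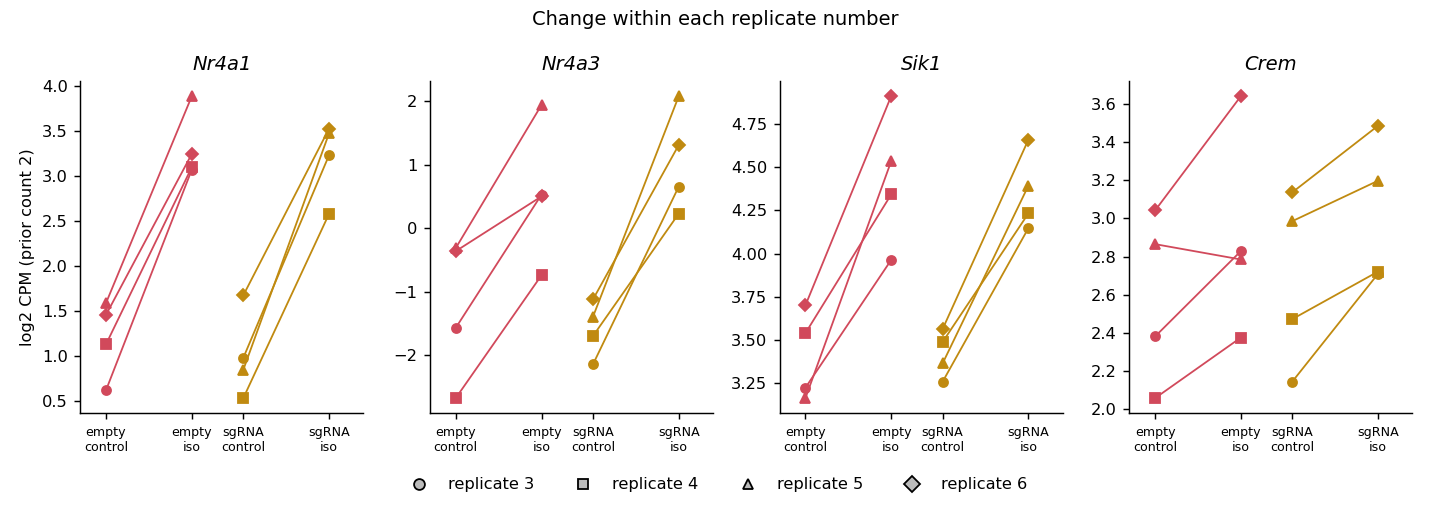
Log2 CPM (prior count 2) of *Nr4a1*, *Nr4a3*, *Sik1* and *Crem* in control and isoproterenol libraries, with a line joining libraries of the same plasmid and replicate number; the y axes differ between genes. All 8 lines rise for the first 3 genes, and for *Crem* 7 of 8 rise.

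The ratio of related transcripts within a library does not depend on how libraries are scaled. These ratios were chosen after the values were seen and are given without a test. The count of *Sik1* was 0.0597 to 0.108 times that of *Sik2* in the 8 controls and 0.155 to 0.275 times in the 8 isoproterenol libraries, with no overlap. The count of *Nr4a1* was 1.8 to 7.57 times that of *Nr4a2* in controls and 5.72 to 23.5 times with isoproterenol, which overlapped, although all 8 pairs were higher. The count of *Crem* relative to *Creb1* overlapped broadly, with 0.142 to 0.261 in controls and 0.14 to 0.32 with isoproterenol, and 6 of 8 pairs were higher.

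**Figure D5:**
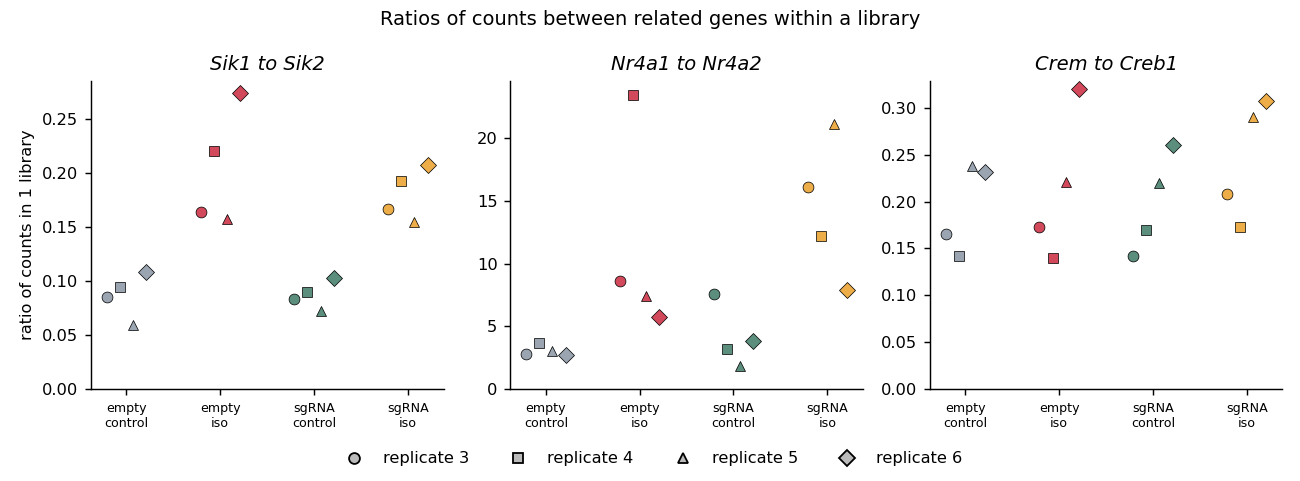
Ratio of counts in each library (0.5 added to each count) for *Sik1* to *Sik2*, *Nr4a1* to *Nr4a2* and *Crem* to *Creb1*, by group, with the marker shape giving the replicate number. The *Sik1* to *Sik2* ratios of control libraries end at 0.108 and those of isoproterenol libraries start at 0.155.

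Levels of different genes were compared as CPM per kilobase of annotated exon. In empty vector controls *Sik2* came first (13.0 ± 1.8), followed by *Crtc2* (4.74 ± 0.62), then *Creb1* (2.26 ± 0.21) and *Sik1* (2.06 ± 0.37), whose ranges overlapped. Below them *Crem*, *Crtc1*, *Nr4a1* and *Crtc3* lay between 1.03 and 0.498, each overlapping its neighbour in the order. *Nr4a2* (0.175 ± 0.060) and *Nr4a3* (0.0605 ± 0.054) were lowest. The order in sgRNA controls was the same. After isoproterenol *Sik1* stood at 4.31 ± 1.18 in empty vector cells and 4.00 ± 0.65 in sgRNA cells, overlapping the range of *Crtc2*, and *Nr4a1* stood at 2.89 ± 0.86 and 2.66 ± 0.72, overlapping that of *Creb1*. *Nr4a3* after isoproterenol (0.279 ± 0.234 and 0.369 ± 0.227) overlapped *Nr4a2* (0.291 ± 0.174 and 0.177 ± 0.114) in both kinds of cells.

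The *Gm15551* guides moved none of the 10 genes past the test. The averaged sgRNA effect ran from -0.48 for *Nr4a2* to 0.10 for *Crem* on the log2 scale, and 0 of 10 genes were called with or without the replicate block. Of all tested genes 0% were called without the block (437 had an unadjusted p below 0.05, and DESeq2 called 8) and 0.266% with it. *Nr4a2* was lower in sgRNA cells in 7 of 8 pairs of the same treatment and replicate number, but its interval was wide (-1.34 to 0.38, unadjusted p = 0.254). For *Nr4a1* the interval was -0.59 to 0.32 and for *Sik1* -0.33 to 0.22. The share of the ribosomal RNA gene also differed between the plasmids, at 29.0 ± 12.8% and 36.8 ± 12.8% in empty vector controls and isoproterenol libraries against 19.1 ± 1.11% and 21.1 ± 7.18% in sgRNA cells. With that share as a covariate the sign of the sgRNA effect turned for 5 of the 10 genes, to 0.21 for *Nr4a2*, 0.23 for *Nr4a1* and 1.12 for *Nr4a3* (adjusted p = 0.815) among others, so these data give no settled direction for them.

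The isoproterenol response did not differ detectably between plasmids. The interaction, the response in sgRNA cells minus that in empty vector cells, was 0.04 for *Nr4a1* (95% interval -0.86 to 0.93), 1.19 for *Nr4a3* (-1.28 to 3.66) and -0.11 for *Sik1* (-0.66 to 0.44). None of the 10 genes passed by edgeR, and of all tested genes 0% passed without the block (52 had an unadjusted p below 0.05, and DESeq2 called 0) and 0% with it (199 below 0.05). With the replicate block the interaction of *Nr4a3* was 1.31 (SE 0.72, unadjusted p = 0.0884) and did not pass. What sets the width of these intervals was not tested.

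Among other genes of the pathway, the 5 CREB relatives and coactivators (*Atf1*, *Atf2*, *Crebbp*, *Ep300*, *Nono*) had log2 fold changes of 0.08 to 0.13, and 0 of 5 were called, against 2.65% of all tested genes. Of 18 genes for kinases, phosphatases and 14-3-3 anchors that act on the CRTC proteins, 17 were tested and 0 were called, against the same 2.65%. In that group *Ywhab*, which encodes a 14-3-3 protein and was the most abundant, was lower at -0.47 (SE 0.10, adjusted p = 0.0103 by edgeR), inside the bound of 0.5. With the replicate block 1 of the 17 was called in empty vector cells, *Ywhab* at -0.53 (adjusted p = 9.1e-05), where 2.15% of all genes were called lower, and 0 in sgRNA cells or in the average. *Ywhaz*, another 14-3-3 gene, stood at 0.20 (SE 0.07, adjusted p = 0.127, and 0.00703 with the block), the opposite direction to *Ywhab*, and *Ywhah* stood at -0.23 (SE 0.06, adjusted p = 0.0263, and 0.000967 with the block), the same direction. Of the catalytic subunit genes of protein kinase A, *Prkaca* stood at -0.23 (SE 0.08, adjusted p = 0.117, and 0.00797 with the block, inside the bound) and *Prkacb* at 0.08 (SE 0.08, adjusted p = 0.641). The retinoid X receptor genes *Rxra* and *Rxrb*, whose products pair with NR4A1 and NR4A2, both stood at -0.18 and did not pass.

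Of 22 genes widely described as cAMP and CREB targets, 17 were tested, and 3 were called higher and 0 lower, with a median log2 fold change of 0.26 over the 17, against 1.33% called higher and a median of 0.00 over all tested genes. *Ucp1*, the uncoupling protein of brown fat, rose by 4.03 (SE 0.37, adjusted p = 7.4e-06). *Pde4d*, which encodes a cAMP phosphodiesterase, rose by 1.35 (SE 0.13, adjusted p = 1.4e-05), and *Ppargc1a*, which encodes the coactivator PGC-1α, rose by 0.71 (SE 0.15, adjusted p = 0.0128), all by edgeR. With the replicate block 5 of the 17 were called higher, against 3.09% of all genes, with *Pde4b* at 1.08 and *Pck1* at 0.79 in addition. The immediate early genes *Fos* (-0.21, SE 0.30), *Egr1* (-0.33, SE 0.21) and *Junb* (0.12, SE 0.19) did not pass. After 24 h of isoproterenol, *Nr4a1*, *Nr4a3* and *Sik1* were thus above control while these 3 genes were not called. The promoter sequence of 17 of the 19 target genes with a searched RefSeq window held at least 1 CRE core in at least 1 window. Some genes had several windows, so this count cannot be set against the share over single promoters. Of the called genes *Ucp1* and *Ppargc1a* held the core. *Pde4d* did not in the single window searched, which does not cover any other start sites. Of the genes not called *Fos* and *Junb* held the core.

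Genes whose log2 CPM closely followed that of the called genes over the 16 libraries, among 11285 genes with a mean of at least 1 CPM, were named by a rule and are given as a description, since both treatments enter the correlation. For *Nr4a1* they were *Add3* (Pearson r = 0.942) and *Bzw1* (0.939). For *Nr4a3* they were *Ptp4a1* (0.952), *Chd1* (0.932) and *Tubb2a* (0.926). For *Sik1* they were *Xdh* (0.966) and *St3gal1* (0.954).

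Markers of adipocytes and of other cells also moved with isoproterenol. The sum of the 6 adipocyte markers averaged 19324 ± 4127 CPM without and 14072 ± 3756 CPM with isoproterenol for the empty vector, and 19337 ± 2018 and 15576 ± 4051 CPM for the guides. Most of this sum was *Fabp4*, which was not called (-0.34, adjusted p = 0.351 by edgeR, and -0.37 with the block, inside the bound of 0.5). *Pparg* stood at -0.06 and was not called. Of the 6 adipocyte markers, 3 were called lower: *Adipoq* at -1.06, *Lipe* at -0.69 and *Cidec* at -0.54, against 1.32% of all tested genes. With the replicate block *Plin1* was called lower too (-0.57, adjusted p = 0.000217), against 2.61% of all genes. The 4 macrophage markers summed to 8.04 to 14.1 CPM in empty vector controls and 14.1 to 22.4 CPM after isoproterenol, and to 6.42 to 13.4 and 13.5 to 21.9 CPM in sgRNA cells. That sum was carried by the lysosomal gene *Cd68* (0.91, adjusted p = 0.00518 by edgeR), while *Ptprc* and *Adgre1*, which define leukocytes and macrophages, were at or near 0 in every group. The 5 preadipocyte markers summed to 33.5 ± 26.5 and 57.0 ± 31.3 CPM in empty vector cells and 21.1 ± 14.6 and 38.1 ± 23.3 CPM in sgRNA cells, mostly *Ly6a*. Of these 5 genes 3 were tested, and 0 were called higher without the block, against 1.33% of all genes. With the block 1 was called higher, *Ly6a* (1.09, adjusted p = 4.9e-06), against 3.09% of all genes. The 3 endothelial markers summed to 1.42 to 3.14 CPM over all libraries. The 4 smooth muscle markers summed to 14.7 ± 13.3 and 9.15 ± 6.91 CPM in empty vector cells and 13.9 ± 13.2 and 8.77 ± 7.38 CPM in sgRNA cells. Of these 4 genes 3 were tested, and 0 were called lower without the block (1.32% of all genes) and 3 with it (2.61% of all genes): *Acta2* at -0.50, *Myh11* at -0.75 and *Tagln* at -0.81. Between plasmids the brown adipocyte marker *Cidea* was called higher in sgRNA cells with the block (1.05, adjusted p = 0.0348 by edgeR), against 0.0456% of all genes. In that fit 1 of the 3 tested preadipocyte markers was called lower, against 0.221% of all genes. Without the block neither gene was called. The part of all these markers in the responses of the 10 genes was not tested, and in bulk RNA fewer cells of a type and less RNA per cell cannot be told apart.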

How the data were processed

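Poly(A) RNA of 16 libraries was sequenced as paired ends. Per the labels and the study's methods, the authors demultiplexed reads with bcl2fastq, trimmed them with cutadapt and quantified transcripts with Salmon on GENCODE M22 (GRCm38). They deposited estimated counts per gene, and versions and the use of strand are not given in the sources used here. Counts were analysed with edgeR 4.0.16 (limma 3.58.1, R 4.3.3). Genes were kept by filterByExpr (minimum count 10, total 15), libraries were scaled by TMM, and 4 group means were fitted to all 16 libraries with a two-sided quasi-likelihood test and Benjamini-Hochberg adjustment. A call needed an adjusted p below 0.05 and a log2 fold change beyond 0.5. Intervals cover 95%. The script was tested on simulated data.

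The members, other gene lists and tests were chosen with earlier results of these data known. The text names all 10 members, the targeted gene, up to 4 genes of each list (called ones with the largest change, otherwise the most abundant, and others picked after their values were seen), and the 3 genes most correlated with each called member, of which some are not reported here. Samples were grouped by their labels. Deviations from the group mean correlated at 0.224 to 0.613 over 24 pairs of libraries with the same replicate number. Over 72 pairs of different number and group they correlated at -0.511 to 0.516, so the ranges overlapped in part. Because all same-number pairs were positive, the number was treated as pairing and used as a block in an alternative fit. No columns were unmatched and 0 libraries were identical. Alternatives were no filter, DESeq2 1.42.0 size factors or Wald test, the block, the ribosomal RNA gene left out or its share as covariate, no fold bound, and each replicate number or library left out. Exon lengths and gene positions came from GENCODE M21 (GRCm38), and promoters from RefSeq (GRCm38.p6).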

Additional observations from a re-analysis of the deposited data

Results flagged for a closer look

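In 3 of the 40 sets of 4 libraries examined (10 genes in 4 groups), 1 library lay far from the other libraries of its group by Dixon's criterion, which chance meets in about 1 in 20 sets. *Nr4a1* was at 14.6 CPM in the empty vector isoproterenol library of replicate 5, where the other libraries ended at 9.32 CPM. Without that library the averaged isoproterenol effect on *Nr4a1* kept its call. *Nr4a2* was at 1.41 CPM in the sgRNA isoproterenol library of replicate 6, where the others ended at 0.532 CPM, and without it the averaged log2 fold change of *Nr4a2* was 0.27. *Crtc3* was at 6.83 CPM in the same library, where the others ended at 4.88 CPM.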

How the results depend on the processing

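The averaged isoproterenol response called 3 of the 10 genes under every alternative other than leaving out replicates, where it called 2 to 3 (2 without replicate 3, when *Nr4a3* was lost), and the log2 fold change was 2.08 to 2.39 for *Nr4a1*, 0.92 to 1.09 for *Sik1* and 2.43 to 3.34 for *Nr4a3*. With the replicate block the calls over all genes went from 349 to 749, *Nr4a3* was called within both plasmids, and no other call of a member changed. In the fits without the block they were 590 with no fold bound, 120 without replicate 3 and 170 without replicate 4. In empty vector cells leaving out replicates gave 1 to 2 calls, and the block gave 3. In sgRNA cells leaving out replicates gave 1 to 3 calls, and 3 were called with no filter, with DESeq2, with the block and with the ribosomal RNA share as covariate. The sgRNA effect and the interaction called 0 members in every setting. Signs turned only for changes that did not pass. With the ribosomal RNA share as covariate the sgRNA effect became 0.23 for *Nr4a1*, 0.21 for *Nr4a2*, 1.12 for *Nr4a3*, 0.096 for *Crtc1* and 0.071 for *Crtc2*, and without the filter 0.015 for *Creb1*. The cause was not tested. Leaving out replicates, the isoproterenol effect ran from -0.083 to 0.080 for *Crtc1*, -0.10 to 0.0013 for *Crtc2* and -0.0077 to 0.23 for *Crtc3*. The sgRNA effect ran from -0.29 to 0.041 for *Nr4a1*, -0.39 to 0.23 for *Nr4a3*, -0.054 to 0.047 for *Creb1*, -0.056 to 0.10 for *Crtc3*, -0.12 to 0.046 for *Sik1* and -0.021 to 0.11 for *Sik2*. *Nr4a2* and *Nr4a3* had the fewest counts, 0 to 51 a library. The block lowered the SE of their averaged isoproterenol effects from 0.41 to 0.28 and from 0.57 to 0.33. What set these SEs was not tested. In 1 setting the filter removed *Nr4a2*.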
